A study of Homo sapiens with 4 samples.

Results

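The genes described here encode subunits of the mitochondrial oxidative phosphorylation machinery. They were chosen by symbol: names beginning with NDUFA, NDUFB, NDUFC, NDUFS, NDUFV, UQCR or ATP5, the cytochrome c oxidase subunit names from COX4 to COX8 with at most 1 letter and a number, and SDHA to SDHD. Assembly factors of the NDUFAF series (7 symbols) and pseudogenes (3 symbols) were dropped. The rule left 89 of the 26364 gene symbols in the count table, of which 43 fell to complex I, 4 to complex II, 9 to complex III, 14 to complex IV and 19 to complex V. Among the 89 were 3 antisense genes (NDUFB2-AS1, NDUFA6-AS1 and NDUFV2-AS1) and 2 readthrough genes, which carry a subunit's name without being subunit genes, and ATP5S and ATP5SL, which carry the ATP5 name but are factors rather than subunits.

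Oxidative phosphorylation is the pathway by which mitochondria turn the electrons of nutrients into ATP. Complex I and complex II pass electrons to ubiquinone, complex III passes them to cytochrome c, complex IV passes them to oxygen, and complex V, the ATP synthase, uses the proton gradient that complexes I, III and IV build. The complexes combine subunits encoded in the mitochondrial DNA with a larger number encoded in the nucleus, except complex II, which is wholly nuclear. The nuclear subunit genes are known for promoters that bind NRF1 and ETS family factors.

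All 4 libraries used here came from Ishikawa cells, which derive from a human endometrial adenocarcinoma. The cells carried the Y537S mutation of ESR1 (estrogen receptor alpha), so no group came from cells without the mutation. The sample titles do not say whether an unmutated copy of ESR1 was also kept. The control group (DMSO, 2 libraries) received 0.1% DMSO and the other group (E2, 2 libraries) received 10 nM estradiol, both for 8 h after growth in hormone-depleted medium. The labels name 2 mutant clones, each with both treatments, and the count columns carry 2 tags, A4 and B212. No label links a tag to a clone number, so each library goes by its treatment and tag below, and each tag is taken as 1 clone. The study asked how the mutant receptor affects gene expression. Within a group the 2 libraries came from different clones. With the tags left out of the model, p-values for E2 measure the spread between those libraries. With the tag in the model, they measure how far the E2 difference varied between the 2 tags, a spread estimated largely over all genes. They do not show that the E2 difference of 1 gene was alike in both tags. Each tag is 1 clone, so p-values between the tags do not measure the spread among clones.

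The libraries held 71575816 to 85222856 counts, and 15599 genes passed the filter on low counts. All 8 endometrial epithelial markers examined (among them KRT8, EPCAM and PAX8) had at least 10 counts in every library, with a summed level of 2300 to 3060 CPM (counts per 1e6 counts after TMM scaling). The 6 stromal markers summed to 35.1 to 130 CPM, nearly all from COL1A1. The leukocyte markers summed to 1.94 to 3.09 CPM and the endothelial markers to 2.3 to 5.11 CPM, with CD3E and PECAM1 at 0 counts in every library.

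Of the 89 genes, 82 passed the filter on low counts. The subunit genes took 0.922% of all counts in DMSO A4 (95% exact binomial interval 0.92% to 0.924%), 1.15% in E2 A4 (1.14% to 1.15%), 0.88% in DMSO B212 (0.878% to 0.882%) and 0.979% in E2 B212 (0.976% to 0.981%). These intervals cover counting error only. The share was highest in E2 A4, and within each tag it was higher with E2 than with DMSO. Summed over all 89 genes, the level was 9299 CPM in DMSO A4, 11890 CPM in E2 A4, 8603 CPM in DMSO B212 and 9554 CPM in E2 B212, a ratio of E2 to DMSO of 1.28 in A4 and 1.11 in B212. By complex, that ratio was 1.32 and 1.12 for complex I (A4 first, B212 second), 1.18 and 1.08 for complex II, 1.26 and 1.13 for complex III, 1.4 and 1.13 for complex IV, and 1.23 and 1.09 for complex V. Each of the 5 complexes thus had a larger summed level with E2 in both tags, and a larger ratio in A4. In bulk libraries, more cells with a high level and more RNA per cell cannot be told apart.

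**Figure D1:**
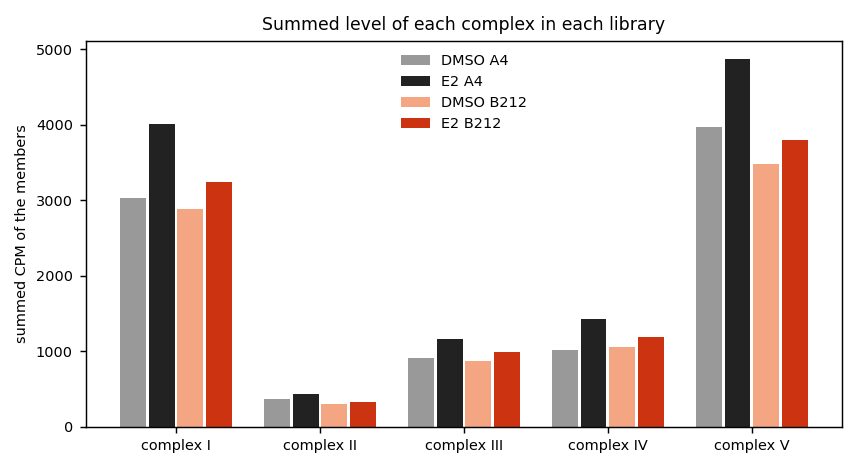
Summed CPM of the 89 subunit genes (vertical axis) by complex in each of the 4 libraries; each bar is 1 library, with no error bar. E2 A4 is the tallest bar in every complex, and in each tag the E2 bar stands above the DMSO bar of the same complex.

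In the comparison of E2 with DMSO over all 4 libraries, no subunit gene passed the threshold when the tags were left out of the model. edgeR's quasi-likelihood test called 0 of the 15599 genes in either direction (0.0%), with a smallest Benjamini-Hochberg adjusted p among the subunit genes of 0.9999. At an unadjusted p under 0.05 it listed 13 of the 82, all higher with E2, where 0.756% of all genes were higher at that level. With the tag as a block, so that each E2 library was set against the DMSO library of the same tag, 48 of the 82 rose and 0 fell (adjusted p under 0.05, same test), against 6.13% of all genes that rose and 3.44% that fell. The coefficient of variation that edgeR estimated was 32.2% without the block and 5.99% with it. DESeq2 with the block called 30 of the 82 higher, and 354 of all genes. The cell type markers also moved in the fit with the block: 3 of the 8 epithelial markers were lower with E2 (KRT18 at -0.27, PAX8 at -0.25 and ESR1 at -0.25 on the log2 scale), as were 1 of 3 tested stromal markers (COL1A1, -0.39) and 1 of 2 tested endothelial markers (VWF, -0.49), and 0 of 3 leukocyte markers. The summed epithelial level was 2450 CPM in DMSO A4, 2300 in E2 A4, 3060 in DMSO B212 and 2780 in E2 B212, and the stromal sum 130, 94.2, 43.0 and 35.1 CPM. The part of these shifts in the result for the subunit genes was not tested. The median log2 fold change was 0.30 for the 82 and -0.0081 for all genes tested in the fit with the block. The quartiles of the 82 fold changes lay at 0.14 and 0.38 on the log2 scale, and the largest was 0.71.

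Both E2 libraries stood above both DMSO libraries for 54 of the 82, and for 13.2% of all genes. Within the tags, 71 of the 82 were higher with E2 in both, 2 (SDHA among them) were lower in both, and 9 went opposite ways. Of all 15599 genes, 5190 were higher in both, 5743 lower in both, and 4666 went opposite ways. The median difference of the 82 was 0.40 in A4 and 0.17 in B212, where all genes had medians of -0.022 and -0.00064. The difference was larger in A4 for 74 of the 82 genes, as it was for 7657 of all 15599. With 1 library for each tag and treatment, that gap between the tags could not be tested. Leaving out the E2 A4 library, in a fit without the block, brought the median log2 fold change of the subunit genes to 0.12. That fit sets E2 B212 against the DMSO libraries of both tags, so its values, here and below, also carry the difference between the tags.

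**Figure D2:**
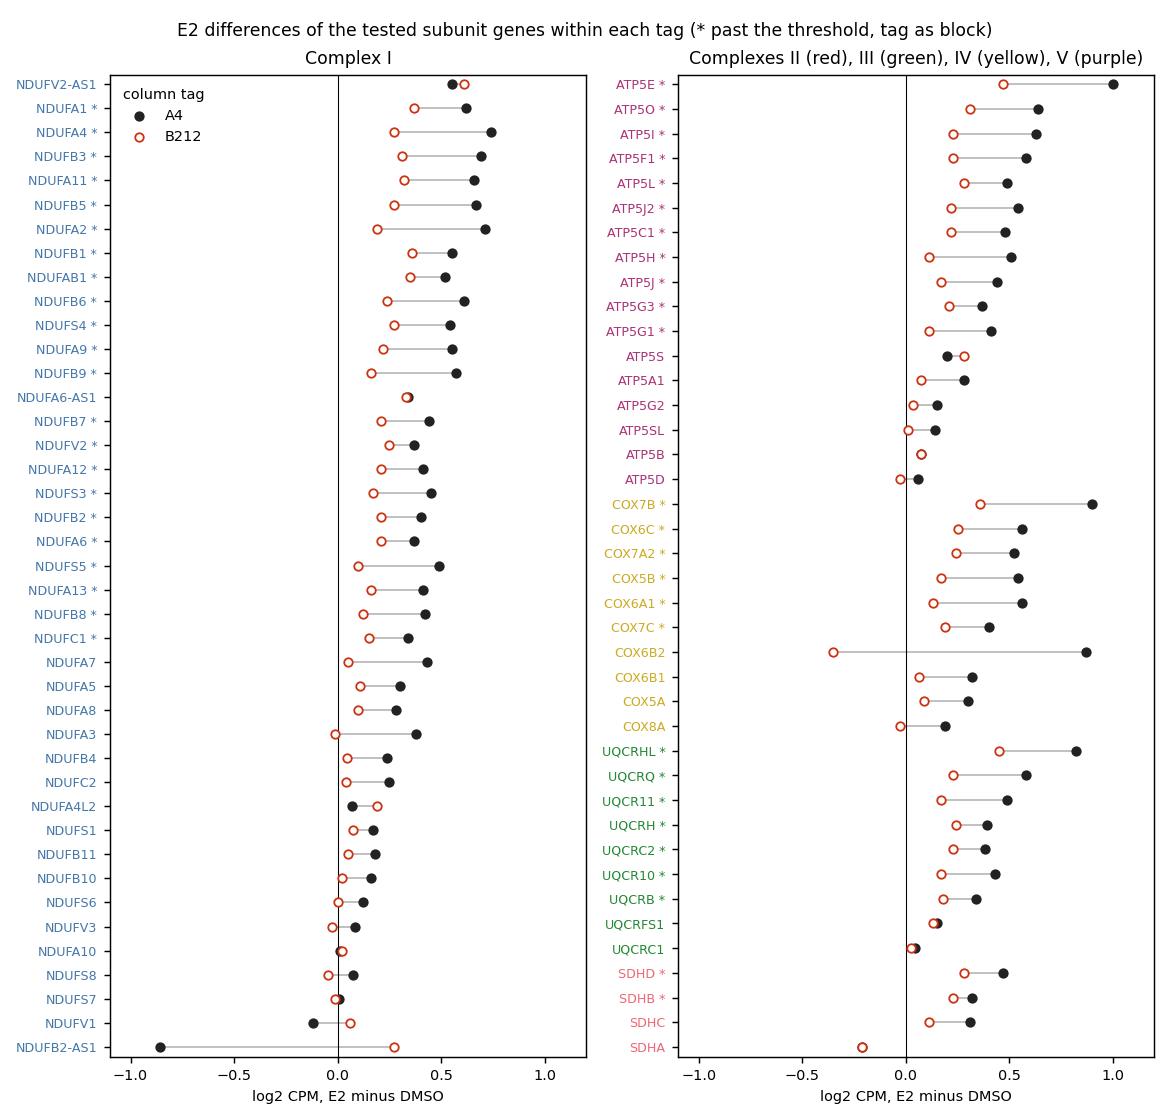
Difference in log2 CPM between the E2 and the DMSO library of the same tag for 81 of the 82 tested genes, by complex (A4 filled, B212 open; a star marks genes past the threshold with the tag as block). Most pairs of points lie to the right of 0, with the A4 point farther right than the B212 point for 74 of the 81 genes drawn.

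Complex I, the NADH dehydrogenase, had 22 of its 42 tested genes higher with E2 in the fit with the block and none lower, with a median log2 fold change of 0.29. Its core subunits and its accessory subunits differed in their counts. Of the 7 nuclear subunits of the catalytic core, which hold the flavin and the iron-sulphur clusters, 2 rose (NDUFS3 and NDUFV2) and the median was 0.014. Of the 30 accessory subunits, which surround the core, 19 rose and the median was 0.29; the difference between the 2 classes was not tested. Once each library was corrected for a smooth trend with transcript length and GC, 0 core and 8 accessory genes were called.

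NDUFS3, a core subunit of the arm that takes up NADH, had 81.0 CPM in DMSO A4, 111 in E2 A4, 59.5 in DMSO B212 and 66.8 in E2 B212. E2 was above DMSO in each tag, but the B212 E2 library lay below the A4 DMSO library, so the groups overlapped. Its log2 fold change with the block was 0.31 (SE 0.077, edgeR adjusted p = 0.016), and -0.075 in the fit without the block and without E2 A4. NDUFV2, which carries an iron-sulphur cluster, rose by 0.31 (SE 0.07, edgeR adjusted p = 0.00927). It shares 39.8% of its 32-base words with pseudogenes, so its counts are uncertain. Other core genes were not called: NDUFS1 had a log2 fold change of 0.12, NDUFS8 of 0.014, NDUFS7 of -0.0018 and NDUFV1 of -0.033, with edgeR adjusted p-values from 0.284 to 0.992.

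Among the accessory subunits, NDUFB3 had 36.7 CPM in DMSO A4, 59.1 in E2 A4, 38.7 in DMSO B212 and 48.0 in E2 B212. Both E2 libraries were above both DMSO libraries, and the log2 fold change was 0.50 (SE 0.087, edgeR adjusted p = 0.00201). NDUFA1, a small membrane subunit encoded on the X chromosome, had 42.0 and 50.6 CPM with DMSO (A4, then B212) and 64.7 and 65.3 CPM with E2, which gave 0.50 (SE 0.079, edgeR adjusted p = 0.00112). NDUFA11 went from 156 to 247 CPM in A4 and from 158 to 198 CPM in B212, with a log2 fold change of 0.49. NDUFB5 went from 148 to 236 CPM and from 182 to 220 CPM, with 0.47. For these 4 genes the groups did not overlap. NDUFAB1, the mitochondrial acyl carrier protein that is also a complex I subunit, went from 91.7 to 131 CPM in A4 and from 70.3 to 89.4 CPM in B212, and NDUFA9 from 142 to 209 and from 117 to 136 CPM. Both rose within each tag (log2 fold changes 0.43 and 0.38), although their groups overlapped because B212 was lower throughout.

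NDUFA4, listed here by its name but known as a subunit of complex IV, had the largest log2 fold change of a gene called under the NDUF names. Its level was 206 CPM in DMSO A4, 344 in E2 A4, 223 in DMSO B212 and 268 in E2 B212, and the log2 fold change was 0.50 (SE 0.088, edgeR adjusted p = 0.00211). NDUFA4L2, its paralog, had 2.24, 2.35, 1.3 and 1.49 CPM in the same order and was not called (log2 fold change 0.13, edgeR adjusted p = 0.709). The 3 antisense genes were not called either. NDUFB2-AS1 had 84, 51, 47 and 49 counts (DMSO A4, E2 A4, DMSO B212, E2 B212), NDUFA6-AS1 had 101, 144, 68 and 74, and NDUFV2-AS1 had 22, 37, 35 and 47. The strand setting of the counting is not given in the sources used here, so reads of these genes and of the subunit genes opposite them cannot be told apart.

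Complex II, succinate dehydrogenase, links the citric acid cycle to the respiratory chain, and 2 of its 4 genes rose, with a median of 0.24. SDHD, a membrane anchor, had 96.2 CPM in DMSO A4, 133 in E2 A4, 87.4 in DMSO B212 and 106 in E2 B212. Both E2 libraries were above both DMSO libraries, and the log2 fold change with the block was 0.37 (SE 0.072, edgeR adjusted p = 0.00419). SDHB, the iron-sulphur subunit, had 122, 153, 82.9 and 96.9 CPM in that order. It rose within each tag (0.32 in A4 and 0.23 in B212), by 0.27 with the block (SE 0.069, edgeR adjusted p = 0.0177), while the groups overlapped. The fit without the block and without E2 A4 gave -0.082, which also carries the difference between the tags (-0.61). SDHC, the other anchor, had 50.2, 62.4, 50.7 and 54.7 CPM and missed the threshold (0.21, edgeR adjusted p = 0.0883). SDHA, the flavoprotein that oxidises succinate, had 93.4, 80.7, 83.1 and 72.1 CPM, lower with E2 by 0.21 in each tag, and also missed it (SE 0.069, edgeR adjusted p = 0.064). It was called lower with counts scaled by library size alone. SDHA shares 25.1% of its 32-base words with SDHAP1, a pseudogene in the table. SDHD shares 25.7% of its words with pseudogenes, so the counts of both are uncertain.

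Complex III, which oxidises ubiquinol, had 7 of its 9 genes higher with the block, with a median of 0.31. All 6 small subunit genes rose, from 0.26 to 0.63 on the log2 scale, against 1 of the 3 genes for the core proteins and the Rieske protein. With the length and GC trend removed these counts were 3 of 6 and 1 of 3, and the difference between the classes was not tested. UQCRQ, which binds near the ubiquinone site, had 89.4 CPM in DMSO A4, 133 in E2 A4, 90.9 in DMSO B212 and 107 in E2 B212. The groups did not overlap, and the log2 fold change was 0.40 (SE 0.079, edgeR adjusted p = 0.00458). UQCRH, the hinge protein, had 122, 160, 115 and 136 CPM, and rose by 0.32 (edgeR adjusted p = 0.00905). UQCRHL, its retrocopy, had 425, 841, 543 and 637 counts and the largest log2 fold change of the complex, 0.63 (SE 0.12, edgeR adjusted p = 0.00312). UQCRH shares 42.9% of its 32-base words with UQCRHL, so reads of one may have been counted for the other.

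Of the larger subunits, UQCRC2, a core protein, had 153, 200, 138 and 162 CPM (DMSO A4, E2 A4, DMSO B212, E2 B212) and rose by 0.31 (SE 0.071, edgeR adjusted p = 0.0104). UQCRC1, its partner, had 177, 183, 132 and 134 CPM. Its libraries split by tag and not by treatment, and its log2 fold change was 0.033 (edgeR adjusted p = 0.806). UQCRFS1, the Rieske iron-sulphur protein, had 52.9, 58.6, 49.6 and 54.3 CPM, with 0.14 (edgeR adjusted p = 0.246).

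Complex IV, cytochrome c oxidase, had 6 of its 10 tested genes higher with the block, with a median of 0.32. COX7B, a small membrane subunit encoded on the X chromosome, had 121 CPM in DMSO A4, 226 in E2 A4, 125 in DMSO B212 and 161 in E2 B212. The DMSO libraries were close to each other and both E2 libraries lay above them, E2 A4 by far the higher. Its log2 fold change of 0.63 (SE 0.092, edgeR adjusted p = 0.000553) was the largest of the complex. COX6C had 86.2, 127, 98.1 and 116 CPM and rose by 0.40 (SE 0.077, edgeR adjusted p = 0.00415), again with no overlap. COX7A2 rose by 0.38, COX5B by 0.36, COX6A1 by 0.34 and COX7C by 0.30. COX6A1 shares 40.1% of its words with pseudogenes. The 4 tested genes that were not called were COX5A (0.19), COX6B1 (0.19), COX8A (0.079) and COX6B2 (0.28, from 5 to 12 counts a library).

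Complex V, the ATP synthase, had 11 of its 17 tested genes higher with the block, with a median of 0.30. Of the 5 genes of its F1 head and central stalk, where ATP is made, 2 rose, and 0 after the length and GC correction. ATP5B, the catalytic beta subunit, had 1494 CPM in DMSO A4, 1573 in E2 A4, 1142 in DMSO B212 and 1202 in E2 B212. The libraries were ordered by tag, and the log2 fold change of 0.074 did not pass (edgeR adjusted p = 0.575). ATP5A1, the alpha subunit, had 849, 1027, 755 and 794 CPM, with 0.17 (edgeR adjusted p = 0.158). ATP5C1, the gamma subunit of the central stalk, had 193, 270, 182 and 211 CPM and rose by 0.35 (SE 0.075, edgeR adjusted p = 0.00784). ATP5E, the epsilon subunit, was listed with only 46, 105, 103 and 123 counts. It had the largest log2 fold change of the 82, 0.71, with the largest SE among the 48 that rose (0.22) and an edgeR adjusted p of 0.0489.

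The 4 genes of the peripheral stalk, which holds the head in place, all rose in the fit with the block, and 2 of them once the length and GC trend was taken out. ATP5O had 181 CPM in DMSO A4, 282 in E2 A4, 169 in DMSO B212 and 209 in E2 B212, with no overlap and a log2 fold change of 0.47 (SE 0.079, edgeR adjusted p = 0.00146). ATP5F1 had 245, 365, 221 and 258 CPM and rose by 0.40 (SE 0.08, edgeR adjusted p = 0.00502). ATP5H rose by 0.31 and ATP5J by 0.30; with the trend removed ATP5H had 0.035 (edgeR adjusted p = 0.786) and ATP5J 0.21 (edgeR adjusted p = 0.0533). The 3 tested small membrane subunits also rose (ATP5I by 0.43, ATP5L by 0.39 and ATP5J2 by 0.38), of which 1, ATP5L, was called with the trend removed. ATP5J2 shares 40.5% of its words with the readthrough gene ATP5J2-PTCD1, which had 0 counts in every library. With pseudogenes, ATP5J2 shares 31.8% of its words and ATP5H 25.9%. Of the 2 ATP5-named factors, ATP5S had a log2 fold change of 0.25 and ATP5SL of 0.077, and neither was called.

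The fold changes with E2 ran with transcript length over all genes. Subunit transcripts are short, with a median of 1015 bases (principal transcript, GENCODE 29) against 2860 for all tested genes with a length. With the genes divided at the quartiles of length, 12.9% of the shortest class (49 to 1827 bases) were higher with E2 and their median log2 fold change was 0.10. The shares were 5.98% (1828 to 2860 bases), 3.32% (2861 to 4563 bases) and 2.63% (4564 bases and more) in the longer classes, and the medians were 0.0075, -0.048 and -0.069. In the shortest class 41 of the 61 subunit genes rose (67.2%), and in the longer classes 3 of 10, 2 of 3 and 2 of 8. The called subunit genes had a median length of 806.5 bases and those not called of 1622 bases.

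When a smooth trend on length and GC content was removed from each library, in the fit with the block, 17 of the 82 rose and 0 fell, against 2.62% of all genes that rose. The median log2 fold change of the 82 was then 0.14. The 17 were 9 genes of complex I, 4 of complex III, 1 of complex IV and 3 of complex V. SDHB (0.15) and SDHD (0.18) no longer passed, at edgeR adjusted p = 0.119 and 0.0707. With the longest coding transcript of each gene in place of the principal one, 12 rose and the median was 0.12. That choice was made after the data were seen, and 297 of all genes rose in that fit. Across the 8 alternative fits with the block run on all the subunit genes (scaling, filter, test and trend), 9 genes passed in every one: NDUFA1, NDUFA9, NDUFA11, NDUFAB1, NDUFB5, UQCRC2, COX7B, ATP5F1 and ATP5O. The same count over all genes is not given here.

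**Figure D3:**
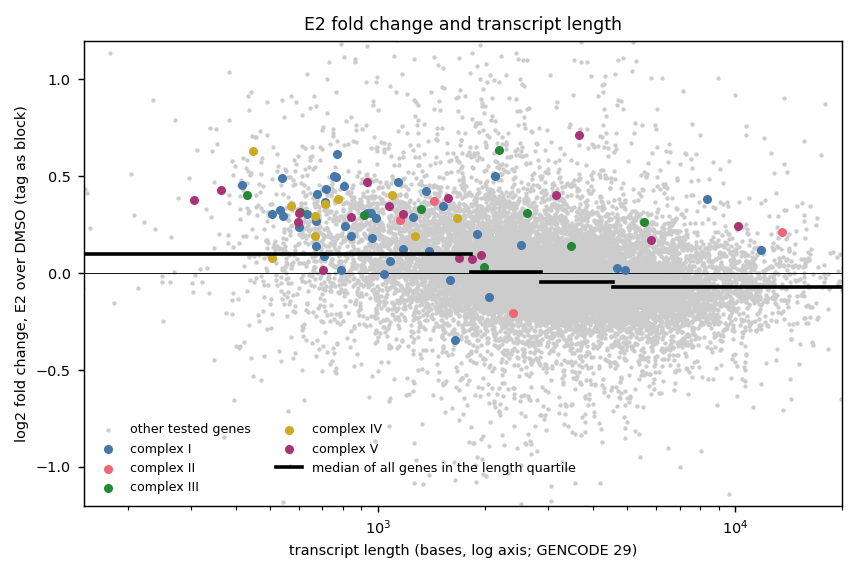
Log2 fold change, E2 over DMSO with the tag as block (vertical axis), against transcript length in bases (log axis) for all tested genes (grey) and the subunit genes (coloured by complex); black bars are the medians of all genes in each length class, and the axes leave out the most extreme genes. The bars step down from 0.10 to -0.069, and 61 of the 82 subunit genes lie in the shortest class.

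Promoter sequence was at hand for 68 of the 84 subunit genes that are neither antisense nor readthrough (RefSeq, GRCh38.p14, 250 bases before to 50 after the start). Both strands were searched for 4 exact words. The NRF1 word GCATGCGC was in 19.1% of the 68 promoters and in 3.27% of all 27305 promoters, the ETS word CCGGAAG in 26.5% and 10.7%, and the YY1 word AAGATGGCG in 11.8% and 1.85%. The estrogen response element GGTCANNNTGACC was in 0 of the 68 and in 0.0659% of all promoters, and no match says only that these letters are not in this window. Matches of different words did not overlap in any subunit promoter. The NRF1 word was in 20.0% of the 40 matched genes that rose and in 20.0% of the 25 tested ones that were not called. The ETS word was in 37.5% (15 genes) and 12.0% (3 genes). These are descriptions, and a match is not a binding site.

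The 120 bases before the start are shown first for the gene with the largest log2 fold change among the called genes of each complex that have a promoter sequence (NDUFA4, SDHD, UQCRQ, COX7B and ATP5E). The other 5 stretches were chosen because they hold an NRF1 or ETS word, so that the words can be seen in place, in 3 genes that rose (NDUFA1, COX5B and ATP5I) and 2 that were not called (ATP5G2 and COX8A). Capitals mark NRF1 and ETS words lying wholly inside the stretch, on either strand.
NDUFA4, chr7:10940154-10940273, minus strand: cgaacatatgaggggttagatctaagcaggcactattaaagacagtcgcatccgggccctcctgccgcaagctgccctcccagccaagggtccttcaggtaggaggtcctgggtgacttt
SDHD, chr11:112086753-112086872, plus strand: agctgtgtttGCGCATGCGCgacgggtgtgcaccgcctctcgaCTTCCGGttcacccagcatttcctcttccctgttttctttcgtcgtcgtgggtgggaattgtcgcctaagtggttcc
UQCRQ, chr5:132866522-132866641, plus strand: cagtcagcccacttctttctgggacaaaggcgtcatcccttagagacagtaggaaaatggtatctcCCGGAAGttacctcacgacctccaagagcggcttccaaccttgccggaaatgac
COX7B, chrX:77899348-77899467, plus strand: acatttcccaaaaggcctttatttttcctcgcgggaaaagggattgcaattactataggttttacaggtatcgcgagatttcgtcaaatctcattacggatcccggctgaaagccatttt
ATP5E, chr20:59032336-59032455, minus strand: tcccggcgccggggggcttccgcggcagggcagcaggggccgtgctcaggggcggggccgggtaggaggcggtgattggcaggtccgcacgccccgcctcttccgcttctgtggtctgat
NDUFA1, chrX:119871712-119871831, plus strand: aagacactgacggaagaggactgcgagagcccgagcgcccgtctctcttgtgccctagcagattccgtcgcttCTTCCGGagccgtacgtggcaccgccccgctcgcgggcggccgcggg
COX5B, chr2:97645942-97646061, plus strand: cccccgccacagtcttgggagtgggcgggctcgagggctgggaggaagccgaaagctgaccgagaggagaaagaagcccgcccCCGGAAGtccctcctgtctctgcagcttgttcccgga
ATP5I, chr4:674277-674396, minus strand: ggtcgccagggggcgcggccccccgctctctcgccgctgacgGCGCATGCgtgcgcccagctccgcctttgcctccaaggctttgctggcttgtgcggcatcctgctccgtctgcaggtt
ATP5G2, chr12:53676084-53676203, minus strand: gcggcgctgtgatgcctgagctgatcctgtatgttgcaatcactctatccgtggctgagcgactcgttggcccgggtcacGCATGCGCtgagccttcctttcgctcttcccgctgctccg
COX8A, chr11:63974500-63974619, plus strand: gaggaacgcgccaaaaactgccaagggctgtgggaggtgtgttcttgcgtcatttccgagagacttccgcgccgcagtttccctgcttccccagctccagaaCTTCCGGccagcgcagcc
Of the 5 genes shown for their fold change, 3 (NDUFA4, COX7B and ATP5E) hold neither word in this stretch, UQCRQ holds the ETS word and SDHD both. A word lay in the stretch of 14 of the 40 called genes and of 5 of the 25 that were not called, and the difference was not tested.

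Several subunits exist as tissue isoforms, and the forms known from muscle or testis were at or near 0. COX6A2 and COX7B2 had 0 counts in every library, where 3 counts, the limit that a count of 0 allows, correspond to 0.0352 to 0.0419 CPM before TMM scaling. COX7A1, a form of heart and skeletal muscle, had 1, 2, 0 and 1 counts (DMSO A4, E2 A4, DMSO B212, E2 B212), at most 0.0165% of the pair it forms with COX7A2 per transcript length. COX8C had 4, 4, 8 and 3 counts, or 0.0479% to 0.118% of its pair with COX8A per transcript length. ATP5L2 had 3, 5, 5 and 3, and the readthrough genes NDUFC2-KCTD14 and ATP5J2-PTCD1 had none. These 7 genes were under the filter and were not tested. COX6B2, known from testis, had 5, 12, 11 and 7 counts, or 0.0248% to 0.0472% of its pair with COX6B1 per transcript length.

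NDUFA4L2 made up 1.07% of the counts of the NDUFA4 pair in DMSO A4 (95% exact binomial interval 0.915% to 1.25%), 0.679% in E2 A4 (0.587% to 0.782%), 0.58% in DMSO B212 (0.477% to 0.698%) and 0.552% in E2 B212 (0.453% to 0.665%). These intervals cover counting error within 1 library and test no difference between conditions. NDUFA4L2 itself had a similar level in both A4 libraries (2.24 and 2.35 CPM), while NDUFA4 had 206 and 344 CPM. Per transcript length the shares were 1.92%, 1.22%, 1.04% and 0.994%. The 3 genes ATP5G1, ATP5G2 and ATP5G3 encode the c subunit of the ATP synthase rotor. Per transcript length, ATP5G3 held the largest share of their counts, 49.2% in DMSO A4, 50.3% in E2 A4, 47.4% in DMSO B212 and 49.8% in E2 B212. ATP5G1 held 29.4%, 31.0%, 26.3% and 25.8%, and ATP5G2 21.4%, 18.7%, 26.3% and 24.4%. ATP5G3 (log2 fold change 0.29, edgeR adjusted p = 0.0144) and ATP5G1 (0.26, edgeR adjusted p = 0.047; -0.062 without the block and without E2 A4) rose with E2 in the fit with the block, and ATP5G2 was not called (0.092, edgeR adjusted p = 0.439).

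Between the tags, with treatment as a covariate, 36 of the 82 genes were lower in B212 than in A4 and 2 were higher, where 25.8% of all genes were lower and 25.2% higher (edgeR quasi-likelihood test, adjusted p under 0.05). The median log2 difference was -0.16, against 0.0042 for all genes. By complex, 20 of 42 were lower in complex I, 2 of 4 in complex II, 3 of 9 in complex III, 3 of 10 in complex IV and 8 of 17 in complex V. No subunit gene differed by a log2 value of 1 or more. By treatment, the median was -0.038 between the DMSO libraries and -0.28 between the E2 libraries. With 1 library in each cell of the design, that contrast could not be tested.

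SDHB had 122 and 153 CPM in A4 (DMSO, then E2) and 82.9 and 96.9 CPM in B212, a log2 difference of -0.61 (SE 0.069, edgeR adjusted p = 4.53e-07). Both B212 libraries lay below both A4 libraries. NDUFS3, named after its values were seen, was lower by a similar amount, and ATP5G1 had a log2 difference of -0.48 (edgeR adjusted p = 6.92e-05). ATP5D, the delta subunit of the central stalk, had 49.2 and 51.3 CPM in A4 and 36.6 and 35.9 CPM in B212, with -0.47 (edgeR adjusted p = 3.86e-05). UQCRC1 differed by -0.43, UQCR10 by -0.23, COX8A by -0.29 and COX5B by -0.22 (0.047 without E2 A4). NDUFA4L2 (-0.72) and NDUFA6-AS1 (-0.79) had the lowest values in complex I, both from few counts. The 2 genes higher in B212 were NDUFB1, with 30.3 and 44.4 CPM in A4 and 39.3 and 50.3 CPM in B212 (0.28, edgeR adjusted p = 0.00689), and ATP5E (0.63, edgeR adjusted p = 0.0243). The cell type markers differed between the tags too, and their part in these differences was not tested. All 3 tested stromal markers were lower in B212, 5 of the 8 epithelial markers were higher (among them KRT19 by 1.01, PAX8 by 0.61 and CDH1 by 0.50 on the log2 scale), and so were both tested endothelial markers (VWF by 0.58 and KDR by 1.17). Without the treatment term the 4 libraries gave 10 subunit genes lower and 0 higher, where 2159 of all 15599 genes were lower and 2297 higher. In fits of that form with 1 library left out, the median was -0.38 without DMSO A4 and 0.027 without E2 A4. It was -0.12 without DMSO B212 and -0.27 without E2 B212. The medians of all genes in these fits ran from -0.0078 to 0.016. Of the 48 subunit genes called with E2 and the 38 called between the tags, 25 were the same. That overlap was not tested, and both comparisons use the same 4 libraries.

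**Figure D4:**
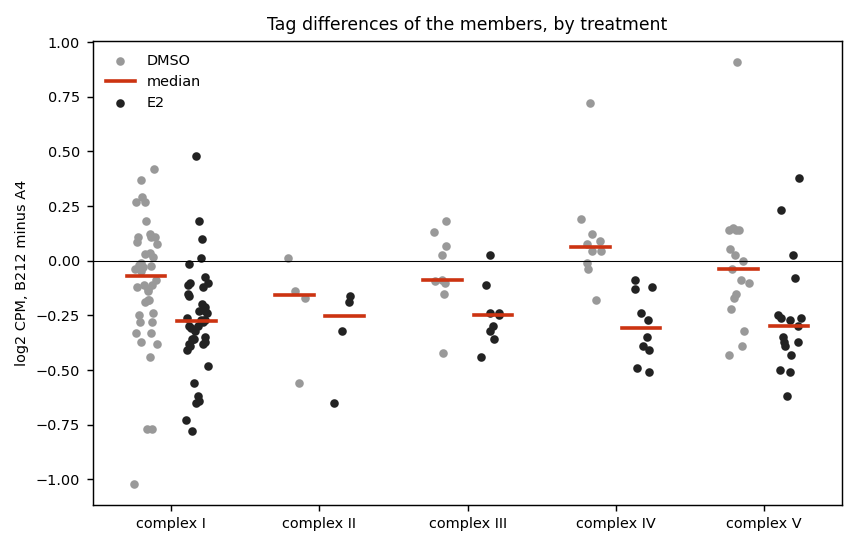
Difference in log2 CPM between the B212 and the A4 library of the same treatment (vertical axis) for the 82 tested genes by complex; each point is 1 gene, grey for the DMSO libraries and black for the E2 libraries, and red bars are medians. The E2 medians lie below the DMSO medians in each of the 5 complexes.

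The other genes of the pathway were read from lists of known members. Of the nuclear subunit and cytochrome c genes whose names fall outside the rule, 7 were tested and 5 rose with E2 in the fit with the block (4 with the length and GC trend removed): USMG5 (log2 fold change 0.50), C14orf2 (0.37), COX7A2L (0.33), CYCS, the gene of cytochrome c (0.31), and CYC1 (0.25). COX4I1, the major nuclear subunit of complex IV, had 231, 296, 231 and 247 CPM (DMSO A4, E2 A4, DMSO B212, E2 B212) and missed the threshold (0.23, edgeR adjusted p = 0.0612). None of the 13 subunit genes of the mitochondrial DNA matched a symbol of the table, and they were not analysed here. Of 43 tested assembly factors 15 rose and 0 fell, with a median of 0.20, and of 75 mitochondrial ribosomal protein genes 28 rose and 0 fell, with a median of 0.21, where 6.13% of all genes rose. With the length and GC trend removed, 5 of the 43 (median 0.11) and 8 of the 75 (median 0.10) rose, where 2.62% of all genes did. In the citric acid cycle 1 of 13 genes rose (SUCLG1, 0.44; median of the list 0.022), and in glycolysis 1 of 17 (PGK1, 0.27; median -0.046). Between the tags, 4 of the 7 outside subunits were lower in B212 and 1 higher, 24 and 3 of the assembly factors, 59 and 2 of the ribosomal protein genes, 9 and 0 in the citric acid cycle, and 13 and 0 in glycolysis, where 25.8% of all genes were lower and 25.2% higher.

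Among 12 tested regulators of mitochondrial genes, 2 rose with E2 in the fit with the block and 0 fell, where 6.13% of all genes rose. They were TFB1M (0.36, edgeR adjusted p = 0.0185) and TFB2M (0.32, edgeR adjusted p = 0.0131), which act in mitochondrial transcription and ribosomal RNA methylation. NRF1 (-0.073), GABPA (-0.029), GABPB1 (0.077), YY1 (-0.046) and ESRRA (-0.067) were not called. With the length and GC trend removed neither TFB1M (0.19, edgeR adjusted p = 0.189) nor TFB2M (0.18, edgeR adjusted p = 0.0971) passed, and PPARGC1B was called higher (0.37, edgeR adjusted p = 0.0231). Between the tags, 3 were higher in B212 and 6 lower, where 25.2% of all genes were higher and 25.8% lower. PPARGC1A, the coactivator PGC-1 alpha, had 1.02 and 0.878 CPM in A4 (DMSO, then E2) and 8.56 and 7.82 CPM in B212, a log2 difference of 3.11 (SE 0.15, edgeR adjusted p = 8.35e-13). TFAM, the packaging factor of mitochondrial DNA, was higher in B212 by 0.65 and GABPA by 0.37. TFB2M (-0.68), PPARGC1B (-0.65), PPRC1 (-0.46), ESRRA (-0.42), POLRMT (-0.42) and TFB1M (-0.29) were lower.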

How the data were processed

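RNA sequencing of 4 libraries (2 DMSO, 2 E2) was used, prepared from poly(A)-selected RNA with a stranded kit, per the labels' protocols. The deposited values are raw read counts per gene symbol; per the submitters' processing notes, HISAT2, SAMtools, featureCounts and DESeq2 were used with hg19. The annotation and the strand setting are not given in the sources used here. The table has 4 more per-sample columns that belong to none of these samples and were not used.

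From the counts, genes were kept by edgeR's filterByExpr (edgeR 4.0.16, R 4.3.3) with a minimum count of 10, given TMM scaling (trimmed mean of M values) and tested by the quasi-likelihood test over all 15599 genes. P-values were adjusted by Benjamini-Hochberg, and the threshold was 0.05. Log2 CPM had a prior count of 2. E2 was compared with DMSO without a block, and with the column tag as replicate block. Each SE is the fold change divided by the square root of its F statistic. With the block, the SE need not follow a gene's own gap between the tags. NDUFA4, with E2 differences of 0.74 in A4 and 0.27 in B212, had an SE of 0.088. NDUFS7, with 0.0078 and -0.012, had 0.089. The tags pair the libraries because each clone received both treatments per the labels. The deviations of same-tag libraries from their group means correlated at 0.871, which with 2 pairs is a single value. The tag comparison had treatment as covariate. The length and GC trend (mgcv 1.9.3) used the GENCODE 29 principal transcript of each gene, found for 96.6% of tested genes and for all 82 tested members. Alternatives used DESeq2 1.42.0, limma 3.58.1 and other scalings and filters. Words shared between genes were 32 bases long. Figures were drawn with matplotlib 3.10.9 in Python 3.11.15.

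On simulated counts 200 genes were changed by 1 on the log2 scale, and every gene had the same spread, near the 5.99% estimated with the block. For the E2 fits the tag differences were as measured and the E2 change was equal in both tags. The fit without the block recovered 0 of the 200 (15476 genes run), and the fit with it 183 with 9 false calls (15471 genes run). The tag fit, on counts with no other difference set between libraries, recovered 183 with 8 false calls (15428 genes run). Smaller changes, such as the subunit genes' median of 0.30, and E2 changes that differ between tags were not simulated.

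The members and gene lists were chosen with earlier results of these data known, so no list carries a test of its own. Genes were named by a rule: in each comparison and complex the 2 called members with the largest fold change in each direction, the SDH genes, the isoform groups, the members under the filter and the called regulators. It took 43 genes. The classes by role and a further 27 named members were chosen after the values were seen. The values of 1 member are not reported here.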

Additional observations from a re-analysis of the deposited data

Results flagged for a closer look

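Of the 82 tested subunit genes, 9 moved in opposite directions with E2 in the 2 tags, as did 4666 of all 15599 genes. Each tag has 1 library per treatment, so the difference between the tags was not tested, and none of the 9 was called with the tag as block. COX6B2 had the widest gap, with a log2 difference of 0.87 in A4 and -0.35 in B212, from 5 to 12 counts a library. NDUFB2-AS1 differed by -0.86 in A4 and 0.27 in B212, from 47 to 84 counts. NDUFA3, an accessory subunit of complex I, differed by 0.38 in A4 and -0.011 in B212, and COX8A by 0.19 and -0.03. The other 5 stayed close to 0 in both tags. NDUFV1 differed by -0.12 in A4 and 0.058 in B212, NDUFV3 by 0.082 and -0.026, NDUFS8 by 0.073 and -0.046, ATP5D by 0.059 and -0.029, and NDUFS7 by 0.0078 and -0.012. NDUFV1, NDUFV3, NDUFS8 and NDUFS7 belong to the peripheral arm of complex I, which takes up NADH and passes its electrons to ubiquinone.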

How the results depend on the processing

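The E2 counts turn on the pairing. With no block, 0 of the 82 subunit genes were called under every scaling, filter and test tried, and with any 1 library left out. With the replicate block 48 were called higher, where 956 of all genes were. The count was 48 with no filter on low counts (1118 of all genes) and 48 with at least 10 counts in every library (956). It was 47 with library size scaling (911), which also called 1, SDHA, lower, and 45 with limma-voom (757). DESeq2 size factors gave 33 (455) and DESeq2 gave 30 (354). DESeq2 gave no adjusted p for 2 of the 48. With the block and the length and GC trend removed 17 were called (408 of all genes higher), or 12 with the longest transcript (297). Without the antisense genes, the ATP5-named factors and the NDUFA4 pair 47 were called. The alternatives with the longest transcript and without these genes were chosen after seeing the data. The cause of the differences between tools was not tested. Fits with 1 library left out assume that the lone library of a group varies like the other group.

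With the trend removed the median log2 fold change was 0.11 in complex I, 0.17 in II, 0.17 in III, 0.16 in IV and 0.14 in V. With the longest transcript it was 0.12 over all the subunit genes, and 0.10, 0.14, 0.21, 0.11 and 0.18 in complexes I to V. Genes near 0 changed sign. ATP5D had -0.002 with library size scaling, -0.0049 with the block added, and -0.093 and -0.087 with the trend removed by the principal and the longest transcript. NDUFS8 had -0.0052, -0.0064, -0.078 and -0.1 in those fits, and COX8A had -0.089 and -0.11 in the last 2. NDUFS7 had 0.0013 with no filter, 0.011 with limma-voom and 0.1 with the longest transcript, where NDUFV1 had 0.037.

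Leaving out each library in turn, without the block, the median log2 fold change with E2 ranged from 0.12 to 0.45 over all the subunit genes, from 0.082 to 0.41 in complex I, from 0.016 to 0.42 in complex II, from 0.19 to 0.46 in complex III, from 0.17 to 0.48 in complex IV and from 0.17 to 0.47 in complex V. These fits leave 1 treatment with a single tag, so their values also carry the difference between the tags. Single genes changed sign in 17 of the 56 cases followed. In complex I the ranges were -0.075 to 0.66 for NDUFS3, -0.21 to 0.2 for NDUFS7, -0.1 to 0.13 for NDUFS8, -0.21 to 0.14 for NDUFV1, -0.01 to 0.065 for NDUFV3, -0.25 to 0.57 for NDUFA4L2, -0.11 to 0.8 for NDUFA6-AS1 and -0.84 to 0.23 for NDUFB2-AS1. In the other complexes they were -0.082 to 0.6 for SDHB, -0.21 to 0.27 for UQCRC1, -0.082 to 0.8 for COX6B2, -0.12 to 0.27 for COX8A, -0.017 to 0.36 for ATP5A1, -0.14 to 0.29 for ATP5B, -0.26 to 0.26 for ATP5D and -0.062 to 0.57 for ATP5G1. TFB2M ranged from -0.11 to 0.69.

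Between the tags, 10 were lower and 0 higher with no treatment term, where 2159 of all genes were lower and 2297 higher. With library size scaling 23 were lower and 4 higher (3176 and 4761 of all genes). DESeq2 called 25 lower and 1 higher (3019 and 2519 of all genes). With the trend removed 46 were lower and 4 higher (4705 and 4052 of all genes). Leaving out each library gave 1 to 55 lower and 0 to 5 higher, and a median from -0.38 to 0.027. Each of these fits leaves 1 tag with a single library, so nothing is concluded from their counts. By complex the median ranged from -0.36 to -0.0048 (I), -0.36 to -0.13 (II), -0.42 to 0.036 (III), -0.37 to 0.14 (IV) and -0.41 to 0.062 (V). COX5B ranged from -0.5 to 0.047 and SDHD from -0.47 to 0.0059. Of the 21 genes followed between the tags, only these 2 changed sign in the alternatives run.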
